A study of Mus musculus with 8 samples.

Results

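Fibroblast growth factors (FGFs), their receptors and their helper proteins were examined in mouse mammary tumours, with every array probe of a gene kept separate. The set holds 31 genes, namely the ligands and FGF homologous factors, the receptors Fgfr1 to Fgfr4, the decoy-like receptor Fgfrl1, the klotho co-receptors Kl and Klb, and the binding proteins Fgfbp1 and Fgfbp3. A probe belonged to it when it was not a control and its RefSeq accession was that of a member gene. This gave 48 probes on 84 spots, out of 55681 probes that cover 21368 named genes.

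The tumours form groups of 4 samples, each sample on 1 2-colour Agilent array. The FGFR1 KO group is described as K19-tva/fgfr1loxP/loxP mice, and the WT group as control K19-tva mice without that floxed pair. Both groups carry K19-tva and are given the strain FVB. The floxed allele came from an ICR background and was crossed back. K19-tva is named for the keratin 19 promoter and for tva, a receptor for avian viruses. How Fgfr1 was recombined, in which cells, how the tumours arose and the age of the mice are not given in the sources used here. Nothing in the labels ties the 4 samples of a group to separate animals, and p-values then reflect only how these samples vary. RNA from whole tumours was compared, so fewer cells of a type and less RNA per cell cannot be told apart.

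FGFs are signalling proteins that bind tyrosine kinase receptors at the cell surface, with heparan sulfate as a cofactor. Bound receptors pair, phosphorylate each other and the adaptor Frs2, and switch on the Ras-MAPK pathway, which in turn induces its own inhibitors of the Sprouty family. Hormone-like FGFs need a klotho protein to bind, and the homologous factors Fgf11 to Fgf14 stay inside the cell and act on ion channels. In the mammary gland, ligands such as Fgf7 and Fgf10 come from the stroma and act on epithelial Fgfr2.

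A value here is the log2 ratio of tumour signal (red) to a human reference RNA (green) hybridised to every array. The labelling protocol gives this order of dyes, while the label field names only cy3. The median SD within groups was lower in green (0.165 for FGFR1 KO and 0.186 for WT) than in red (0.308 and 0.391), over 23622 spots. If the dyes ran the other way, every sign below would turn. Probe levels are not comparable between probes, since each probe has its own brightness, so only values of 1 probe are set against each other.

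The arrays of the groups differed as a whole. The share of spots with red signal well above background was 68.9% to 83.9% on FGFR1 KO arrays and 43.9% to 69.2% on WT arrays. The share in the reference channel differed as well, at 89.4% to 91.4% against 69.5% to 82.0%. All 8 arrays lie on 1 slide with FGFR1 KO in the upper row and WT in the lower, and genotype cannot be told apart from slide row. Marker genes of fat had a median log2 ratio of 4.13 on WT 1 and 4.74 on WT 2 and at or below 0.57 elsewhere, and those of skeletal muscle had 2.99 and 8.97 against at most 0.42. Epithelial keratin and adhesion markers had a median between 1.47 and 2.56 on 7 arrays and of -2.74 on WT 2. Fibroblast markers were lower in FGFR1 KO for 7 of 7 genes, with medians from -2.78 to -0.72 against -1.07 to 0.14. Fat markers were lower for 5 of 5 genes, endothelial and immune markers for 4 of 4 each and skeletal muscle markers for 4 of 5. Basal markers were lower for 3 of 5 and the epithelial keratin and adhesion markers for 0 of 5, beside 47.5% of all tested probes. The part of these cell mixtures in the differences below was not tested.

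Most receptor probes were detected in every tumour, while many ligand probes were not. A probe was counted as detected on an array when at least a share of 0.5 of its usable spots was well above background. In red, 17 of the 48 probes were detected on all 8 arrays, among them all 3 Fgfr1 probes, both Fgfr2 probes, both Fgfr4 probes, 1 of the 2 Fgfr3 probes and the Fgfrl1 probe. No array detected 6 probes, namely those of Fgf9, Fgf10, Fgf16 and Kl, A_55_P2180059 of Fgf20 and A_55_P1976655 of Fgf23. More FGFR1 KO than WT arrays detected 23 probes and more WT than FGFR1 KO arrays detected 2, while over all probes of the array the shares were 45.1% and 3.22%. The reference channel leaned the same way, with 17 probes detected on more FGFR1 KO arrays and 0 on more WT arrays.

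**Figure D1:**
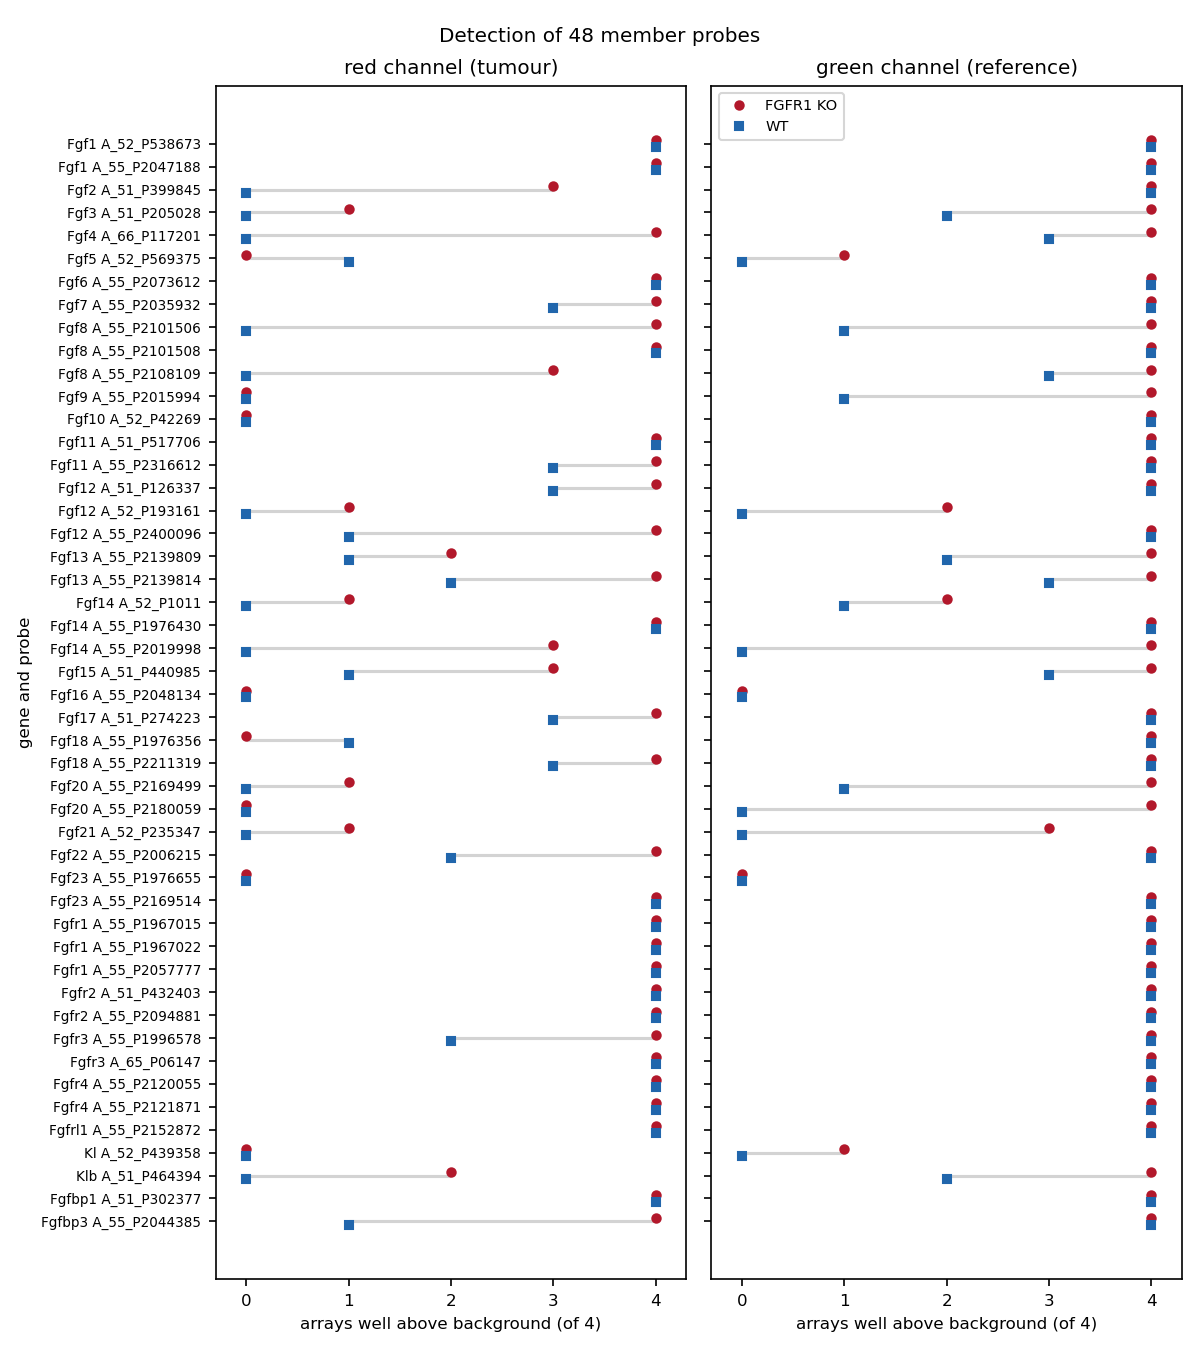
Number of arrays of each group (of 4) on which each of the 48 probes was well above background, in the tumour channel (left) and the reference channel (right). Circles are FGFR1 KO, squares are WT and the grey line joins them. In red, 23 probes were detected on more FGFR1 KO arrays and 2 on more WT arrays, and in green 17 and 0.

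A genotype test was made for the 30 probes of 21 genes whose red signal was detected on 4 or more of the 8 arrays. The 18 probes left out include every probe of 10 genes, namely Fgf2, Fgf3, Fgf5, Fgf9, Fgf10, Fgf16, Fgf20, Fgf21, Kl and Klb. Fgf4 and the Fgf8 probe A_55_P2101506 passed only through the FGFR1 KO arrays, with detection on 4 of 4 against 0 of 4. Neither gives a fold, since their FGFR1 KO signal did not exceed the lowest signal above background on the WT arrays. Detection in red was 4 of 4 against 1 of 4 for Fgfbp3 and for A_55_P2400096 of Fgf12. For Fgf15 it was 3 of 4 against 1 of 4.

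None of the 30 probes passed an adjusted p of 0.05 in either direction (limma, Benjamini-Hochberg over 39782 probes), where over all probes 4 passed, all lower in FGFR1 KO (0.0101%). The smallest adjusted p of a member was 0.401. At an unadjusted p under 0.05, 0 members were higher and 1 was lower, beside 3.63% and 4.85% of all probes. The groups did not overlap for 0 members with FGFR1 KO higher and 1 with FGFR1 KO lower, beside 2.39% and 2.7% of all probes. The difference was below 0 for 18 of the 30 and above 0 for 12, with a median of -0.03, beside 47.5% below 0 and a median of 0.02 over all probes. The counts past these limits lie near the background of the array, and the median of the 30 turned to 0.01 with Agilent's own log ratio and to 0.04 in red signal alone.

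**Figure D2:**
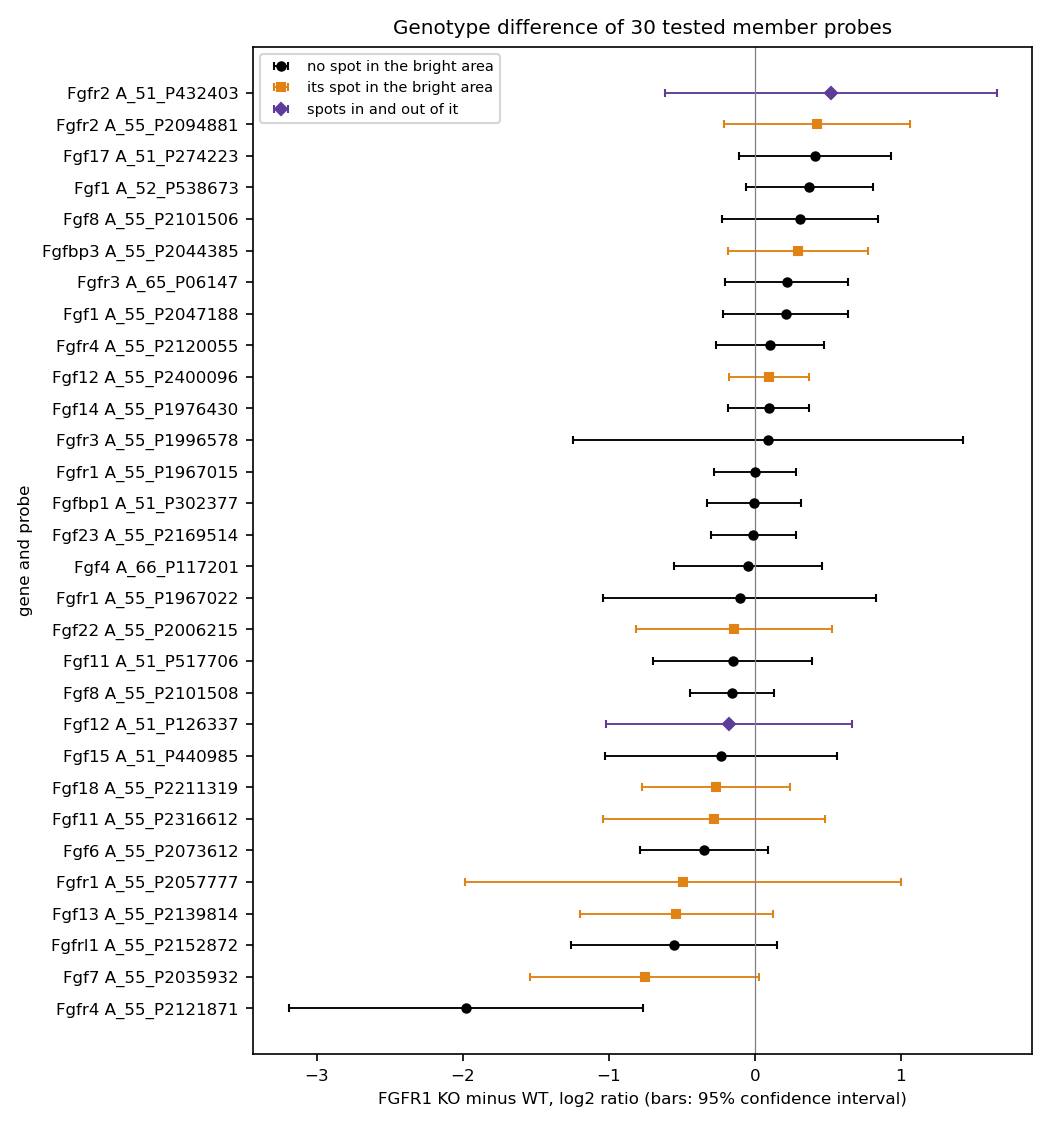
Difference in log2 ratio, FGFR1 KO minus WT, for the 30 tested probes in order of size, with 95% confidence intervals from limma. Symbols mark whether a probe's spots lie in the bright area of the array. The interval excludes 0 for 1 probe, A_55_P2121871 of Fgfr4, at -1.98, and Fgf4 and A_55_P2101506 of Fgf8 were detected on no WT array.

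Fgfr1 encodes the receptor named as knocked out, and none of its 3 probes differed between the genotypes beyond its spread. Whether these probes lie in the floxed part of the gene was not given in those sources, so they do not check the genotype labels. Probe A_55_P1967015 read 0.45, 0.27, 0.32 and 0.19 on FGFR1 KO 1 to 4 and 0.28, 0.23, 0.38 and 0.33 on WT 1 to 4. The groups overlapped fully, and the difference was 0.00 with a 95% interval from -0.28 to 0.28 (limma).

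Probe A_55_P1967022 of Fgfr1 read 0.67, -0.14, 1.64 and -0.42 on FGFR1 KO 1 to 4 and 0.42, 0.22, 0.74 and 0.78 on WT 1 to 4. The FGFR1 KO tumours lay on both sides of the WT tumours, and the difference was -0.10 ± 0.41 (SE). Probe A_55_P2057777 read 0.57, 0.18, 1.76 and -1.99 on FGFR1 KO 1 to 4 and 0.49, 0.56, 0.53 and 0.91 on WT 1 to 4. Its difference was -0.49 ± 0.66 (SE), and it moved to 0.21 without FGFR1 KO 4 and to -1.04 without FGFR1 KO 3. Both probes were thus highest on FGFR1 KO 3 and lowest on FGFR1 KO 4, while the WT tumours stayed close together. The red signal of A_55_P2057777 was 13.2 (log2) on FGFR1 KO 3 and 9.44 on FGFR1 KO 4.

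The Fgfr1 probe with no difference was also among the brightest of the array. A_55_P1967015 had a mean log2 signal of 16.3 in red and 16.0 in green in the FGFR1 KO group, and its values varied little between arrays in either group. Among members, A_55_P2101508 of Fgf8 and A_55_P2169514 of Fgf23 were also above 14 in both channels, a limit chosen after the values were seen. Such probes made up 2.92% of those tested, or 1161 probes, and their median SD within groups was 0.140 against 0.307 over all tested probes. None of them was flagged as saturated in red, and 20 had an unadjusted p under 0.05. Saturation in green is not given here.

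Fgfr2 encodes the receptor for Fgf7 and Fgf10 in epithelium, and its 2 probes gave the same order of tumours within each group. The probe A_51_P432403 read 1.95, -0.20, 0.28 and -0.17 on FGFR1 KO 1 to 4 and -0.13, -0.48, -0.44 and 0.82 on WT 1 to 4. The single-spot probe A_55_P2094881 read 1.03, -0.16, 0.13 and 0.03 on FGFR1 KO 1 to 4 and -0.19, -0.56, -0.19 and 0.27 on WT 1 to 4. On both probes FGFR1 KO 1 was the highest tumour and WT 4 the highest WT tumour. The differences were 0.52 ± 0.50 and 0.43 ± 0.28 (SE), and without FGFR1 KO 1 they were 0.03 and 0.17.

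Fgfr3 encodes a further receptor of the family. Probe A_55_P1996578 read 2.47, 0.34, 1.06 and 0.25 on FGFR1 KO 1 to 4 and 0.86, 1.04, -0.24 and 2.10 on WT 1 to 4. The groups overlapped over almost their whole range, with a difference of 0.09 ± 0.59 (SE), which was -0.39 without FGFR1 KO 1 and -0.30 without WT 3. Probe A_65_P06147 read 0.52, 0.02, 0.40 and 0.21 on FGFR1 KO 1 to 4 and 0.01, 0.44, -0.24 and 0.08 on WT 1 to 4, a difference of 0.22 ± 0.18 (SE). It was the former probe that was detected on only 2 of 4 WT arrays.

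Fgfr4 encodes the receptor that binds the bile acid hormone Fgf15 together with Klb. Its 2 probes gave differences of -1.98 and 0.11, a gap that did not pass adjustment over the probe pairs (exact permutation, adjusted p = 0.286). Probe A_55_P2121871 read -1.38, -0.95, -0.30 and -1.47 on FGFR1 KO 1 to 4 and 1.13, 0.15, 2.51 and 0.03 on WT 1 to 4. All FGFR1 KO tumours lay below all WT tumours, at -1.03 ± 0.54 against 0.95 ± 1.15 (SD, n = 4 each). The difference was -1.98 ± 0.53 (SE), with a 95% interval from -3.19 to -0.77. It did not pass the adjusted threshold (limma, p = 0.00504, adjusted p = 0.401), and the exact permutation test gave its smallest possible two-sided p of 0.0286.

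The difference on A_55_P2121871 came from both channels. The red signal was 10.4, 11.1, 12.1 and 10.5 (log2) on FGFR1 KO 1 to 4 and 12.6, 11.8, 14.1 and 11.8 on WT 1 to 4, so that FGFR1 KO 3 lay above WT 2 and WT 4. Its red difference was -1.54, with an exact permutation p of 0.0857. The green signal, from the common reference, was 11.8, 12.0, 12.4 and 11.9 on FGFR1 KO 1 to 4 and 11.4, 11.6, 11.6 and 11.8 on WT 1 to 4. Every FGFR1 KO array was higher there, by 0.44 on average (exact permutation p = 0.0286). Green signals with all FGFR1 KO arrays above all WT arrays were found for this probe alone among the 30 (2.35% of all tested probes), and the reverse for A_55_P2057777 of Fgfr1 (1.15%). Red signals lay apart for 1 member with FGFR1 KO higher, Fgf17 (3.22% of all tested probes), and for 0 with FGFR1 KO lower (2.44%).

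The other Fgfr4 probe, A_55_P2120055, read 0.04, -0.25, -0.26 and -0.25 on FGFR1 KO 1 to 4 and -0.63, -0.31, -0.10 and -0.13 on WT 1 to 4. Its groups overlapped, with a difference of 0.11 ± 0.16 (SE). Set against A_55_P2121871 within each array, it gave a difference between the genotypes of 2.09, with an exact permutation p of 0.0286. Adjusted over the 10 pairs of probes compared in the set, this p was 0.286. The Fgf8 pair, which entered that adjustment, holds a probe detected on no WT array and is not read. The other 8 pairs had exact permutation p-values from 0.457 to 0.886.

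Probes of Fgfr4 and Fgfr2 carried the lowest and the highest difference among those tested, and neither passed the adjusted threshold. The other Fgfr4 probe was at 0.11, and the Fgfr2 difference fell to 0.03 without FGFR1 KO 1. The promoters of both genes are shown for the sequence around their start sites. Each runs from 250 bases before to 50 after the start and comes from the RefSeq table of build GRCm38.p6, at chr13:55152568-55152867 (plus strand) for Fgfr4 and chr7:130266759-130267058 (minus strand) for Fgfr2. Capitals mark GGGCGG, the core of the GC box.
Fgfr4: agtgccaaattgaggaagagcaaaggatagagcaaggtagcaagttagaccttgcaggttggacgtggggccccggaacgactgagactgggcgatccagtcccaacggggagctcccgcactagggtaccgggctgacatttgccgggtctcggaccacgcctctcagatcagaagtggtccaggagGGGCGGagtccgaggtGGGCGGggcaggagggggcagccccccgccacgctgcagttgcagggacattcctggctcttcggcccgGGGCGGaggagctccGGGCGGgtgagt
Fgfr2: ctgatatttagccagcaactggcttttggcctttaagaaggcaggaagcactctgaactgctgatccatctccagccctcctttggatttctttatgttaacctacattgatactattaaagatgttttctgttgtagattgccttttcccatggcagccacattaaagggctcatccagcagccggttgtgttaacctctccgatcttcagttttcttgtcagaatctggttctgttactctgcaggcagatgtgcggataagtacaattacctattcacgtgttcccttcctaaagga
The Fgfr4 promoter holds 4 such matches and 20 CpG dinucleotides, and the Fgfr2 promoter 0 matches and 4 CpG. The member counts cover 31 promoters of 24 of the 31 genes. Fgf1 is among the genes with no promoter counted, which does not mean that the source holds none for it. GGGCGG, searched on both strands, was found in 19 of these 31 promoters and in 35.7% of all 32851 promoters. CCGGAAG was found in 1 against 8.86% of all, and TATAAA in 5 against 13.6%. The median number of CpG was 18 in the members and 7 in all promoters. Several promoters of 1 gene enter these counts, as for Fgf12, Fgf13 and Fgfr3. The counts are matches of letters, and no binding was measured.

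Fgfrl1, a receptor that binds FGFs but lacks the kinase domain, read 0.59, 0.13, 0.72 and -0.62 on FGFR1 KO 1 to 4 and 0.24, 0.99, 0.98 and 0.83 on WT 1 to 4. The lowest tumour was FGFR1 KO 4 and 3 WT tumours lay above every FGFR1 KO tumour. The difference was -0.55 ± 0.31 (SE), and -0.28 without FGFR1 KO 4. Over the 9 tested probes of Fgfr1 to Fgfr4, 4 differences were below 0 and 5 above, with a median of 0.09.

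**Figure D3:**
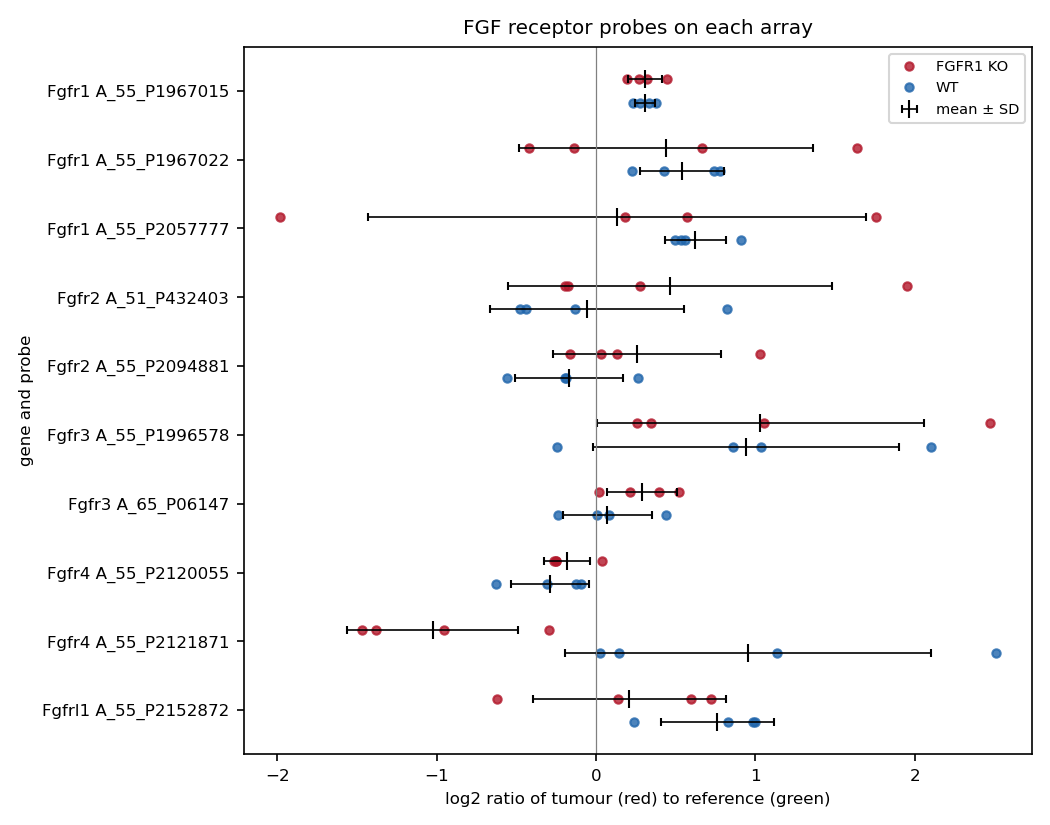
Log2 ratio of tumour to reference on each array for the tested probes of Fgfr1 to Fgfr4 and Fgfrl1, with FGFR1 KO in red, WT in blue, and the mean ± SD of 4 arrays in black. The groups lie apart only for A_55_P2121871 of Fgfr4, at -1.03 ± 0.54 against 0.95 ± 1.15.

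Ligands gave small differences within their spread. The 12 tested probes of 10 secreted ligands had a median difference of -0.10, with 8 below 0 and 4 above, Fgf4 and A_55_P2101506 of Fgf8 included. Fgf7, the keratinocyte growth factor made by stroma, had the largest of them. It read -2.29, -1.68, -2.18 and -2.61 on FGFR1 KO 1 to 4 and -1.64, -0.61, -1.23 and -2.27 on WT 1 to 4, with overlap through WT 4. The difference was -0.75 ± 0.35 (SE, limma adjusted p = 0.603), from -1.03 without WT 4 to -0.44 without WT 1 and WT 2 together. Fibroblast markers were lower in the same group, as given above, and their part in this difference was not tested.

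Fgf1, a ligand that binds all the receptors, had 2 tested probes. A_52_P538673 read -0.10, -0.56, -0.42 and -0.11 on FGFR1 KO 1 to 4 and -0.75, -1.04, -0.54 and -0.35 on WT 1 to 4, with overlap and a difference of 0.37 ± 0.19 (SE). It fell to 0.15 without WT 1 and WT 2. A_55_P2047188 differed by 0.21 ± 0.19 (SE), and by 0.03 without FGFR1 KO 1. Of the Fgf8 family of ligands, Fgf17 differed by 0.41 ± 0.23 and Fgf18 by -0.26 ± 0.22 (SE). Fgf18 moved to -0.14 without FGFR1 KO 4 and to -0.40 without FGFR1 KO 2.

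The 2 brightest ligand probes hardly varied. A_55_P2169514 of Fgf23, a hormone of phosphate balance, read 0.59, 0.45, 0.47 and 0.45 on FGFR1 KO 1 to 4 and 0.44, 0.37, 0.68 and 0.51 on WT 1 to 4, a difference of -0.01 ± 0.13 (SE). The second Fgf23 probe was detected on no array. A_55_P2101508 of Fgf8, a ligand of development and of mouse mammary tumours, read 0.18, -0.02, 0.25 and 0.12 on FGFR1 KO 1 to 4 and 0.25, 0.37, 0.34 and 0.19 on WT 1 to 4, a difference of -0.16 ± 0.13 (SE). The Fgf8 probe A_55_P2101506 was detected on no WT array, and no difference is read from it.

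The remaining secreted ligands with some detection in both groups were Fgf6, Fgf15 and Fgf22. In red, Fgf6 was detected on 4 of 4 WT arrays, Fgf22 on 2 and Fgf15 on 1. Fgf6 differed by -0.35 ± 0.19 (SE), and by -0.21 without FGFR1 KO 3. Fgf15 differed by -0.23 ± 0.35 (SE), by -0.50 without FGFR1 KO 1 and by -0.04 without WT 3. Fgf22 differed by -0.14 ± 0.30 (SE), from -0.32 without WT 2 to 0.13 without WT 3. The interval of each of these differences includes 0.

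Homologous factors had 6 tested probes, of which 4 were below 0, with a median of -0.17. Fgf11 probe A_51_P517706 read -0.18, -0.38, -0.21 and 0.27 on FGFR1 KO 1 to 4 and -0.08, -0.40, -0.04 and 0.62 on WT 1 to 4, a difference of -0.15 ± 0.24 (SE). Fgf14 probe A_55_P1976430 read 0.14, 0.07, 0.07 and 0.05 on FGFR1 KO 1 to 4 and -0.05, -0.11, 0.14 and -0.02 on WT 1 to 4, a difference of 0.10 ± 0.12 (SE). In both probes the groups overlapped. Fgf13 differed by -0.54 ± 0.29 (SE), and 2 of its 4 WT arrays detected it. It moved to -0.34 without WT 4, to -0.78 without WT 1 and to -0.18 in red signal alone.

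The binding proteins release FGFs from the matrix. Fgfbp1 differed by -0.01 ± 0.14 and Fgfbp3 by 0.30 ± 0.21 (SE). Only 1 of 4 WT arrays detected Fgfbp3 in red, against 4 of 4 FGFR1 KO arrays. Fgfbp3 moved to 0.15 without FGFR1 KO 3, to 0.47 without FGFR1 KO 4 and to 0.75 with Agilent's log ratio. Of the co-receptors, Kl was detected on no array and Klb on 2 FGFR1 KO arrays, so neither was tested.

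**Figure D4:**
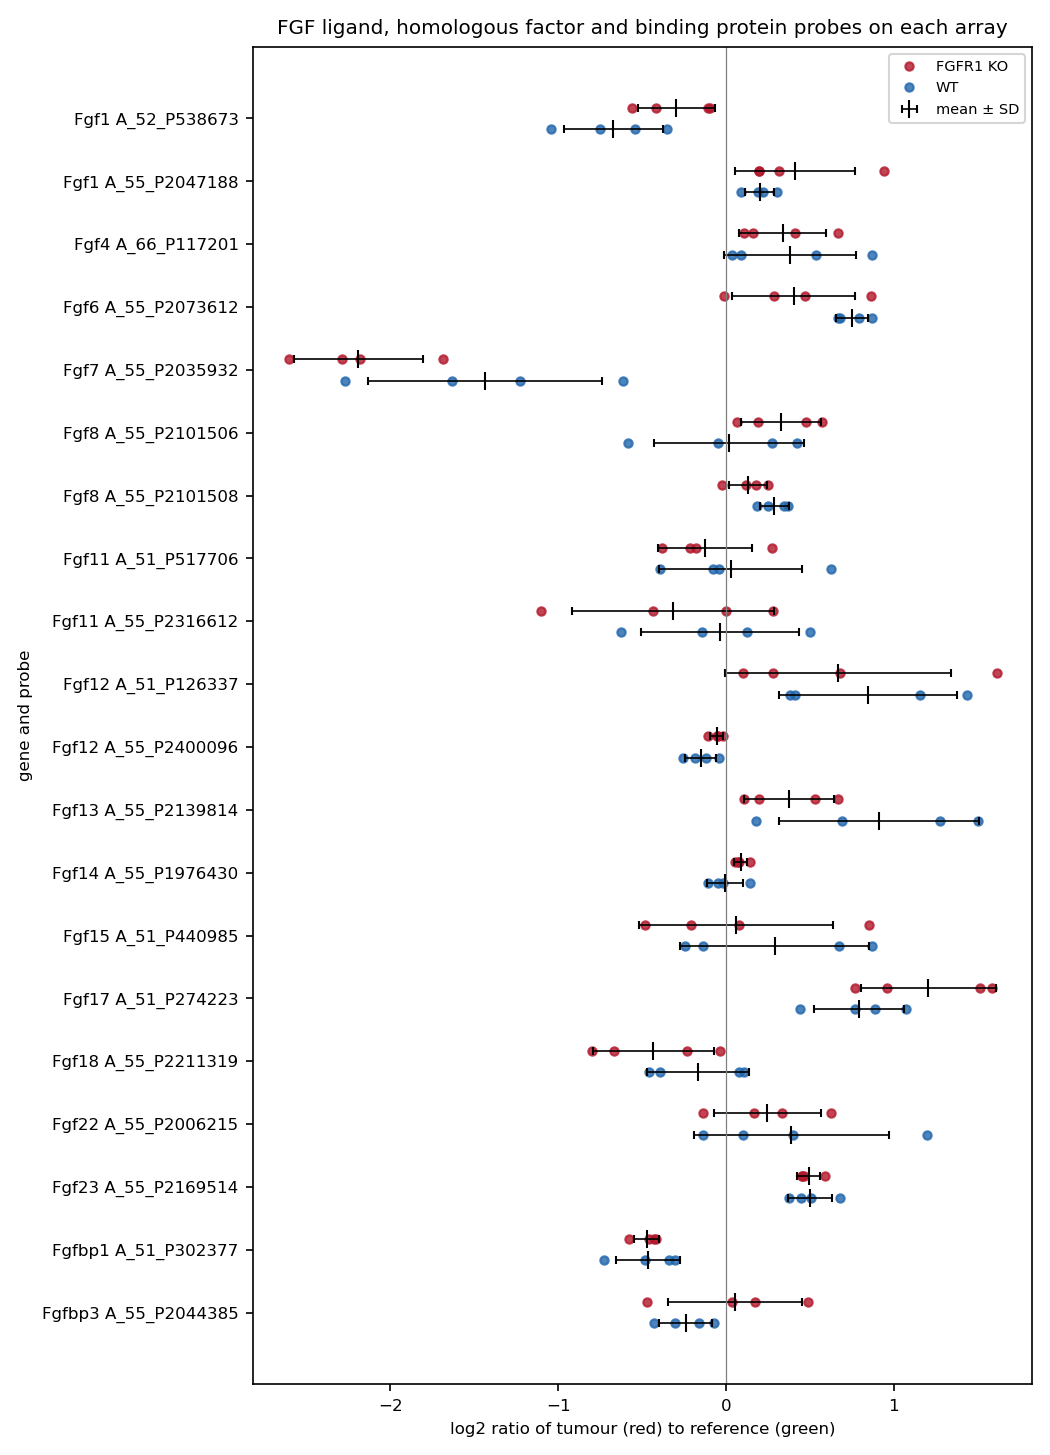
Log2 ratio of tumour to reference on each array for the tested ligand, homologous factor and binding protein probes, with FGFR1 KO in red, WT in blue, and the mean ± SD in black. The groups overlap for each of these probes, and Fgf4 and A_55_P2101506 of Fgf8 were detected on no WT array.

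Some member spots lie in an area of the array, 240 rows from row 97 and 82 columns from column 83, where negative controls were bright on part of the WT arrays. The median red negative control in this area reached 35.5 for WT 1 and 41.0 for WT 3, while the remaining arrays had 6.25 or less. The area holds 30 of the 84 member spots (35.7%), beside 31.3% of all non-control spots. All spots of 14 probes lie in it, namely those of Fgf5, Fgf7, Fgf21, Fgf22, Kl and Fgfbp3 and 1 probe each of Fgf8, Fgf11, Fgf12, Fgf13, Fgf14, Fgf18, Fgfr1 (A_55_P2057777, at row 299 and column 116) and Fgfr2 (A_55_P2094881, at row 304 and column 88). Another 4 probes have spots on both sides, and 30 have none inside. Both Fgfr4 probes lie outside.

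Probes in the area had lower differences across the whole array, and members did too. Over all tested probes the median was -0.10 with every spot inside and 0.06 with no spot inside, with 63.2% and 40.1% below 0. The 9 tested probes with every spot inside had a median of -0.26, from -0.75 to 0.43, with 6 below 0, and the 19 with no spot inside had a median of -0.01, with 11 below 0. The 4 probes called over the whole array all lie inside as well. The part of array position in the differences of Fgf7, Fgf13, A_55_P2057777 of Fgfr1 and the other inside probes was not tested by spots elsewhere, since each has 1 spot.

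Probes printed 10 times allow that look. For A_51_P432403 of Fgfr2, 5 spots lie inside and 5 outside. Inside spots were higher on 8 of 8 arrays, by 0.04 to 0.37, yet the difference between genotypes was 0.49 from the inside spots and 0.55 from the outside ones. On FGFR1 KO 1 all 9 usable spots read between 1.70 and 2.30, above each of the 64 usable spots of the other arrays (-0.95 to 1.43). The high value of that tumour was therefore present at every one of its spots.

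Fgf12 A_51_P126337, with 4 spots inside, gave a difference of -0.24 from the inside and -0.14 from the outside spots. The exact permutation p-values of these 4 comparisons, Fgfr2 included, ran from 0.457 to 0.771. The 10-spot probes of Fgf2, the basic FGF, and of Fgf10 were detected in red on no WT array, and Fgf10 on no array, so no difference is read from them. Over 294 tested probes with 10 spots, the median of inside minus outside was -0.02 to 0.03 on FGFR1 KO arrays and 0.04 to 0.12 on WT arrays.

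**Figure D5:**
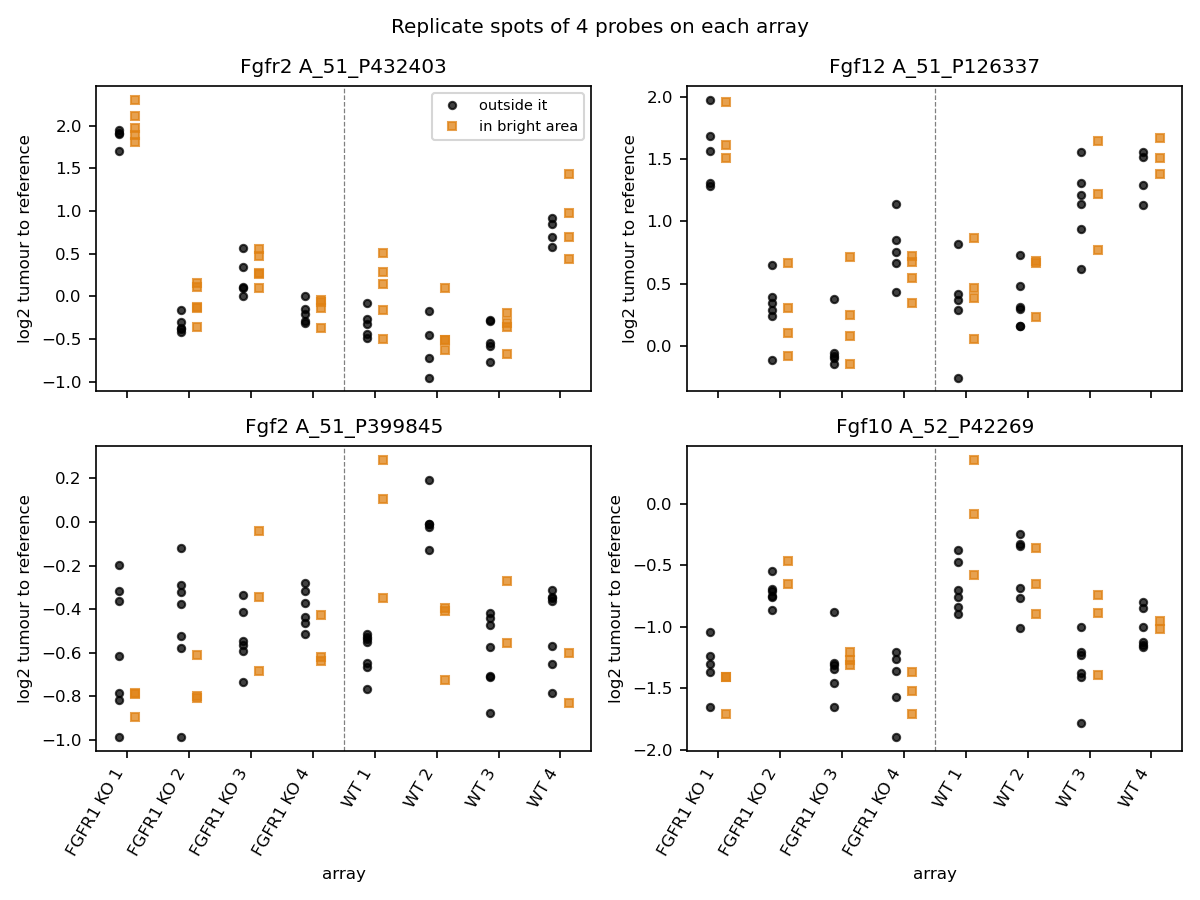
Log2 ratio of tumour to reference at each usable spot of the 4 member probes printed 10 times, by array, with spots inside the bright area as squares and spots outside as circles. All 9 Fgfr2 spots of FGFR1 KO 1 lie between 1.70 and 2.30, above the spots of the other arrays. Fgf10 was detected on no array and Fgf2 on 3 FGFR1 KO arrays only.

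Genes that act with the receptors were counted from lists chosen with earlier results of these data known, each gene by its brightest tested probe. None of the genes in these lists passed the adjusted threshold, and 0 of 16757 genes did so by this choice of probe (519 higher and 801 lower at an unadjusted p under 0.05). Of 20 genes of signal transduction inside the cell, 18 were tested, with 7 above 0, 11 below and a median of -0.07. This median turned to 0.01 without the bright area, with 5 of 11 genes below 0. It was 0.03 in red signal alone, with 8 of 18 below 0. Ptpn11, a phosphatase bound by receptor adaptors, differed by -0.39 ± 0.17 from a spot in the bright area, and Shb, an adaptor, by 0.31 ± 0.18 (SE).

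Feedback inhibitors and targets had 10 of 13 genes tested, 6 above 0 and 4 below, with a median of 0.09 that was 0.37 in red signal alone and -0.07 without WT 1 and WT 2. Spry4, a Sprouty inhibitor of the pathway, read 0.25, 0.86, 0.45 and 0.45 on FGFR1 KO 1 to 4 and -0.44, -0.29, -0.24 and -0.16 on WT 1 to 4. All FGFR1 KO tumours lay above all WT tumours, with a difference of 0.79 ± 0.16 (SE) that did not pass the threshold (limma adjusted p = 0.227). Groups lay apart in this direction for 2.39% of all tested probes. Of the other Sprouty genes tested, Spry1 differed by 0.15 ± 0.35 and Spry2 by -0.04 ± 0.16 (SE). Spred2, a related inhibitor, differed by 0.22 ± 0.16 (SE).

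Heparan sulfate carriers and enzymes had 22 of 23 genes tested, 11 above 0 and 11 below, with a median of 0.01. At an unadjusted p under 0.05 (limma), 0 were higher and 3 lower, beside 519 and 801 of all 16757 genes. Gpc3, a glypican that carries heparan sulfate at the cell surface, read 0.87, 0.89, 1.01 and 0.48 on FGFR1 KO 1 to 4 and 1.49, 2.37, 1.79 and 1.52 on WT 1 to 4. Its groups did not overlap, and the difference was -0.98 ± 0.22 (SE, limma adjusted p = 0.296), from a spot in the bright area. Groups lay apart with FGFR1 KO lower for 2.7% of all tested probes. Hspg2, the matrix proteoglycan perlecan, differed by -0.45 ± 0.15 and Sulf1 by -0.62 ± 0.21 (SE), both from spots outside the bright area. The 6 receptor partners were all below 0, with a median of -0.17, but 4 of 6 were below 0 with Agilent's log ratio or in red signal alone. Those with the smallest p were Ncam1 at -0.54 ± 0.32 and Flrt1 at -0.23 ± 0.16 (SE), adhesion proteins that bind FGF receptors. Both rest on a spot in the bright area. Without that area 4 partners were left, 4 of them below 0, with a median of -0.11. Over all 16757 genes the median was -0.0023.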

How the data were processed

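Gene expression was measured in 8 tumour samples on 2-colour arrays. Agilent Feature Extraction 11.0.1.1 read the scans, with probes designed on build mm9, per the file headers. The deposited median signals are linear intensities, and the deposited ratio is a log10 of the processed red and green signals, per the file headers. The authors' deposited series matrix holds log2 ratios, judged from its values (r of 0.985 to 0.991 with the values used here, column medians -0.02 to 0.02), and its normalization and centring are not given in the sources used here.

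In limma 3.58.1 (R 4.3.3), median signals were corrected by normexp with an offset of 50 and arrays were normalized singly by loess, giving control and outlier spots a weight of 0. Spots of a probe were averaged. Probes detected in red on at least 4 arrays with at least 3 values per group were tested by lmFit and eBayes, two-sided. Differences between probes of a gene, and single values, were tested by exact permutation over 70 splits. Single-channel signals were taken after loess and A-quantile normalization. Gene names and promoter sequences came from RefSeq tables of GRCm38.p6, and intensity over background limits the precision, as does the number of arrays. Arrays of 39782 probes were simulated with the spread of this comparison and with noise independent between probes. Of changes added together, 83 of 100 log2 changes of 2 and 99 of 100 of 4 were recovered, with 6 false calls. The real comparison called 4 probes, and adjusted p depends on how many probes change. These shares therefore do not give the chance of calling a single member change of that size.

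Members, lists and alternatives were chosen with earlier results of these data known. Values on every array are given for tested receptor probes, members with an unadjusted p under 0.05, probes of a pair with an exact p under 0.05 and the 5 brightest ligand probes. Of each pathway list the 2 genes with the smallest p are named, and Spry1, Spry2 and Sulf1 were named after their values were seen. Other probes were named after their values were seen. The background correction, normalization, reference channel, filter, spread, array weights, replicate block, array area and arrays were varied.

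Same-numbered samples did not deviate together (correlations -0.039, 0.012, 0.109 and -0.106 for numbers 1 to 4), so the numbers were not taken to pair them.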

Additional observations from a re-analysis of the deposited data

Results flagged for a closer look

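In 4 of the 60 groups of 4 arrays examined, 1 array stood apart from the others by a gap above Dixon's 95% critical share of the group's range, and chance gives about 1 in 20 such groups. Fgf1 A_55_P2047188 stood at 0.94 on FGFR1 KO 1, while FGFR1 KO 2 to 4 gave 0.19 to 0.31. Fgf23 A_55_P2169514 stood at 0.59 on the same array, while the others gave 0.45 to 0.47. Fgfr4 A_55_P2120055 stood at 0.036 there, while the others gave -0.26 to -0.25. Fgfr1 A_55_P2057777, whose spot lies in the bright area, read 0.91 on WT 4, against 0.49 to 0.56 on the other WT arrays.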

How the results depend on the processing

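No member probe passed an adjusted p of 0.05 in any of the 21 alternatives run (limma). Over all probes, 4 passed as reported. With Agilent's log ratio 0 passed, and likewise 0 with red signal alone, with detection on all 8 arrays required, with eBayes trend and robust, without the bright area, and without WT 1 and WT 2. With no filter 139 passed and with array weights 11. Leaving out 1 array at a time gave 0 to 1. With the replicate number as a block the count was 0, and no member call changed. The count of probe pairs with an exact permutation p under 0.05 was 1 as reported, 0 with red signal alone, and 0 to 1 when 1 array was left out. Pairs were not tested without WT 1 and WT 2, where 4 against 2 arrays cannot reach 0.05.

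Fgfr4 A_55_P2121871 kept its sign in 21 of 21 alternatives (-2.29 to -1.46). Signs turned as follows, all for differences that missed the threshold, and the cause was not tested. Those of Fgf4 and Fgf8 A_55_P2101506 rest on WT signal not above background. Fgfr1 A_55_P1967015 was 0.0036 with offset 10, 0.00023 in the series matrix and 0.069 in red alone. With Agilent's log ratio, Fgf4 was 0.38, Fgf22 0.14 and Fgfbp1 0.060. In red alone, Fgf4 was 0.25, Fgf8 A_55_P2101508 0.076, Fgf11 A_51_P517706 0.022, Fgf12 A_51_P126337 0.052 and Fgfr3 A_65_P06147 -0.046. Fgfbp1 was 0.018 with array weights. Without WT 1 and WT 2, Fgf8 A_55_P2101506 was -0.023, Fgf11 A_55_P2316612 0.069, Fgfr4 A_55_P2120055 -0.072 and Fgfbp1 0.13. With 1 array left out, the ranges that include 0 were -0.047 to 0.038 for Fgfr1 A_55_P1967015, -0.50 to 0.18 for A_55_P1967022 and -1.04 to 0.21 for A_55_P2057777. They were -0.16 to 0.11 for Fgf4, -0.29 to 0.046 for Fgf11 A_51_P517706, -0.49 to 0.018 for Fgf12 A_51_P126337 and -0.32 to 0.13 for Fgf22. They were -0.052 to 0.049 for Fgf23, -0.39 to 0.48 for Fgfr3 A_55_P1996578, -0.0071 to 0.17 for Fgfr4 A_55_P2120055 and -0.096 to 0.046 for Fgfbp1. The median over all probes was 0.12 with Agilent's log ratio and 0.14 in red alone, against 0.02.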

Other observations

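The member probes did not take their extremes evenly from the arrays. FGFR1 KO 1 was the highest of the FGFR1 KO arrays for 14 of the 30 tested probes and the lowest for 2, while over all tested probes it was the highest for 26.8% and the lowest for 30.5%. FGFR1 KO 4 was the lowest for 14, against 24.8% over all. Of the WT arrays, WT 4 was the highest for 13, against 24.8% over all. WT 1 was the lowest for 11, against 24.5%. Several probes of 1 gene enter these counts, and they were made without a test.

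Among members that were not tested, Fgf9 read 1.20 on WT 2 and -0.88 to 0.01 on the other arrays, and Fgf5 read 1.52 on WT 3 and 0.71 on WT 1 against 0.01 to 0.21 elsewhere. Fgf9 was well above background in red on no array and Fgf5 on 1, a WT array, and the Fgf5 spot lies in the bright area.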
